A study of Mus musculus with 14 samples.

Results

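Regulatory T cells (Tregs) from melanomas of wild-type mice were compared with Tregs from the spleens of mice of the same genotype. The comparison set 3 libraries titled WT Tumor_2, 3 and 4 (WT tumor) against 4 libraries titled Spleen_1 to 4 (spleen), 7 of the 14 libraries of the series. Its genes were those of at least 1 FPKM (fragments per kilobase of transcript, scaled to the mapped fragments of the library) in 3 or more of these 7 libraries, 8478 of the 22255 genes in the files. All 7 libraries came from FoxP3-YFPCre+/+ mice of 8 weeks, labelled wild type (Foxp3-YFP+), in which the Foxp3 gene drives a yellow fluorescent protein joined to Cre recombinase. No floxed allele is given for these mice. The tumors were Yumm1.7, a transplantable mouse melanoma line, and the cells are labelled tumor-infiltrating Tregs. The series also held 4 libraries from lymph node (LN) Tregs of the same genotype. A further 3 came from Yumm1.7 tumors of 8-week-old CD36floxed FoxP3-YFPCre+/- mice (KO tumor). Both groups are used here for levels, and the LN libraries also entered the test's estimate of the spread. Spleen is here a reference tissue, and the labels do not say whether spleens came from tumor-bearing mice. Nothing in the labels ties a replicate to an animal of its own. The p-values therefore weigh a difference against the spread of the spleen, WT tumor and LN libraries alone, part of which may be technical.

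Tregs are CD4 T cells that restrain other immune cells and whose identity is held by the transcription factor Foxp3. In lymphoid organs many of them are resting cells that recirculate through blood and lymph. In tumors they are mostly effector Tregs, which carry high levels of costimulatory and inhibitory receptors such as ICOS, 4-1BB and CTLA-4 and can make tissue-repair factors such as amphiregulin. Signals through the T cell receptor, and also stress and tissue digestion, induce a fast wave of early-response genes, the AP-1 factors among them.

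The deposited tables hold normalized values without counts, and the steps between low FPKM values put the depth at 11.4 to 13.8 M reads (M, mega) in the spleen libraries and 10.7 to 14.4 M in the WT tumor libraries. Between 7469 and 8145 genes per library reached 1 FPKM. Correlations of log2(FPKM + 1) between replicates, taken across genes, were 0.745 to 0.784 in spleen and 0.757 to 0.765 in WT tumor. The LN libraries, which share the estimate of the spread, were deeper (18.4 to 21.4 M reads) and varied less, with correlations of 0.853 to 0.862. Foxp3 itself (chromosome X, 7573644 to 7595245, GRCm38) had 21.1, 16.9, 27.8 and 8.67 FPKM in spleen 1 to 4 and 11.96, 3.54 and 11.97 FPKM in WT tumor 2 to 4. The groups overlapped, and its log2(FPKM + 1) difference of -0.99 ± 0.55 (SE) had a limma adjusted p of 0.413. Foxp3 had 15.4 to 32.3 FPKM in LN and 25.7 to 42.4 FPKM in KO tumor, above every WT tumor library. The summed level of 8 Treg and CD4 T cell markers was 1294 to 1773 FPKM in spleen and 1453 to 1699 FPKM in WT tumor. This sum mixes Treg genes with genes of all CD4 T cells, so it is no measure of Treg identity alone. Markers of other cells were present too. The summed 16 macrophage or monocyte markers stood at 478.6 to 860.1 FPKM in spleen and 159.6 to 268.7 FPKM in WT tumor. Ctss, the gene of the protease cathepsin S, made up most of the WT tumor sums, with 119.7, 162, 159 and 199.8 FPKM in spleen and 162, 151 and 165 FPKM in WT tumor (0.02 ± 0.26, limma adjusted p = 0.988). Without Ctss the other 15 summed to 278.8 to 740.3 FPKM in spleen and to 107, 8.47 and 1.59 FPKM in WT tumor 2 to 4. B cell or plasma cell markers stood at 92.6 to 379 FPKM in spleen and 8.31 to 102.5 FPKM in WT tumor. WT tumor 2 had 225 FPKM of erythroid markers in sum, where WT tumor 3 and 4 had 11900 and 8716 FPKM. In bulk libraries of this kind, fewer cells of a type and less RNA per cell cannot be told apart. Cd36, the scavenger receptor gene that names the series, reached 1 FPKM in 2 of these 7 libraries, both from spleen, and was listed at 0 in all WT tumor libraries, so it was not tested. In the tumors labelled KO it was listed at 1.06 FPKM in KO tumor 2 and at 0 in KO tumor 1 and 3.

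Of the 8478 genes, 194 passed the limma test at an adjusted p of 0.05 (2.29%). In WT tumor 122 of them were higher (1.44% of all genes tested) and 72 were lower (0.849%). The median log2 difference over all genes tested was -0.07. Among the genes that passed, the median size of the difference was 2.76 on the log2 scale, with a range of 0.43 to 6.93, and 134 differed by more than 4-fold on the FPKM + 1 scale. Without overlap between the groups stood all 194 genes that passed, and 1033 genes (12.2%) of all those tested, 526 with every WT tumor value above (6.2%) and 507 with every WT tumor value below (5.98%). Where all spleen values were under 1 FPKM, the filter kept a gene only if all 3 WT tumor libraries reached 1 FPKM. Lack of overlap was then set by the filter, as in Fosb, Cdkn1a, Acod1, Itga1, Ltb4r1, Traj31 and Klrc1. Where all WT tumor values were under 1 FPKM, it asked for at least 3 spleen libraries at 1 FPKM, which left little room for overlap. The calls were sensitive to single libraries: 72 of the 194 passed whichever library was left out, 46 higher and 26 lower. Genes that passed and are named in the text below belong to these 72, unless a sentence gives the libraries without which the call was lost, each with its adjusted p in brackets. Without WT tumor 2, 3 or 4 the counts of higher genes were 72, 75 and 73. A fit of the 7 libraries without LN gave 87 genes, and 82 of these were among the 194.

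**Figure D1:**
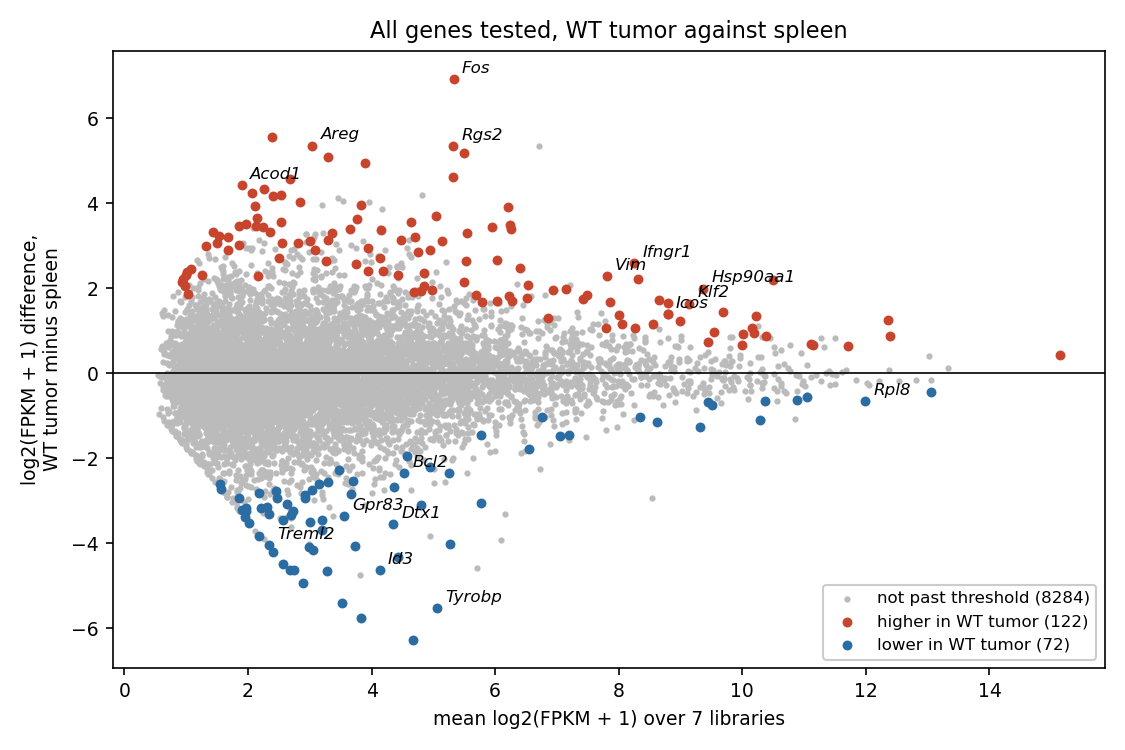
Each point is a gene, with its mean log2(FPKM + 1) over the 7 libraries on the x axis and the log2(FPKM + 1) difference, WT tumor minus spleen, on the y axis. The 122 genes that passed as higher are red, the 72 that passed as lower are blue, and at high mean levels, on the right, differences under 1 passed as well.

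Early-response transcription factors held the gene with the largest difference. Fos, a subunit of the AP-1 transcription factor (chromosome 12, 85473890 to 85477273), had 2.16, 5.98, 2.89 and 7.11 FPKM in spleen 1 to 4 and 810.1, 615 and 485 FPKM in WT tumor 2 to 4. The lowest tumor library thus stood far above the highest spleen library, and the difference of 6.93 ± 0.72 (SE) on the log2(FPKM + 1) scale had a limma adjusted p of 0.000389. Its relative Fosb was near 0 in spleen, at 0.02004, 0.0645, 0.862 and 0 FPKM, and had 39.3, 11.8 and 21.1 FPKM in WT tumor (4.24 ± 0.54, limma adjusted p = 0.00151). Jund, the Jun family member that is present in unstimulated cells as well, was already well above 0 in spleen. Its values were 83.7, 104, 125 and 97.1 FPKM there and 482, 305 and 274 FPKM in WT tumor (1.75 ± 0.31, limma adjusted p = 0.0103). Jun, the main partner of Fos, stood at 8.79, 10.4, 3.34 and 11.1 FPKM in spleen and 88.6, 111 and 44.05 FPKM in WT tumor, and its call was lost without WT tumor 3 (adjusted p = 0.0541). Of 12 AP-1 and related leucine zipper genes tested, these 4 passed as higher and none as lower. The list's median log2 difference was 1.84, against -0.07 over all genes. Every WT tumor value was above every spleen value in 8 of the 12, and in 6.2% of all genes tested. Junb was among those that did not pass, with 12.9, 35.05, 23.1 and 26.7 FPKM in spleen and 23.7, 97.03 and 95.2 FPKM in WT tumor, where WT tumor 2 lay within the spleen range.

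Of 16 Nr4a, Egr and other early transcription regulators, 4 passed as higher and 0 as lower, and all 16 had a difference above 0 (median 1.31). Klf6, a zinc finger factor induced by stress and injury, was the firmest of them. It had 18.4, 19.1, 17.1 and 12.4 FPKM in spleen and 149.9, 199.5 and 169 FPKM in WT tumor, a difference of 3.30 ± 0.39 (limma adjusted p = 0.000869). Crem, a cAMP-responsive factor whose short forms repress transcription, had 14.4, 11, 0.408 and 0.456 FPKM in spleen and 63.7, 51.5 and 91.7 FPKM in WT tumor. Spleen 3 and 4 were low and spleen 1 and 2 stood higher, yet all 4 lay below the tumor libraries. Its call was lost without any of WT tumor 2 (0.0638), WT tumor 3 (0.0594), WT tumor 4 (0.0818) and spleen 3 (0.0526). The nuclear receptor gene Nr4a1, a common readout of T cell receptor signals, did not pass: it had 1.69, 4.11, 9.58 and 12.1 FPKM in spleen and 5.24, 13.4 and 31.01 FPKM in WT tumor, and the groups overlapped. Its relative Nr4a2 had 4.07, 2.43, 15.04 and 5.003 and 63.7, 32.98 and 53.3 FPKM without overlap, with the call lost without WT tumor 2 (0.0869), WT tumor 4 (0.0781), spleen 1 (0.0542) and spleen 2 (0.0554).

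Some feedback inhibitors of these signals were higher as well. The dual-specificity phosphatases remove phosphate from MAP kinases, and 4 of 14 tested passed as higher and 0 as lower (median 1.01). Dusp1 (chromosome 17, 26505590 to 26562128) stood at 2.74, 9.88, 6.7 and 33.05 FPKM in spleen and 253, 274 and 218 FPKM in WT tumor, a difference of 4.61 ± 0.64 (limma adjusted p = 0.00248). Dusp14 and Dusp16 were close to 0 in 3 of 4 spleen libraries. Dusp14 had 2.16, 0, 0.0413 and 0 FPKM there and 34.6, 14.3 and 15.2 FPKM in WT tumor (3.94 ± 0.60, limma adjusted p = 0.00441). Dusp16, which acts on the kinases JNK and p38, had 3.21, 0.0324, 0.212 and 0.0463 FPKM in spleen and 28.2, 27.98 and 23.1 FPKM in WT tumor (4.16 ± 0.65, limma adjusted p = 0.00455). In both genes spleen 1 was the high library. Dusp5, which acts on ERK in the nucleus, had 18.6, 5.39, 9.29 and 6.73 and 123, 128 and 48.95 FPKM, and its call was lost without WT tumor 2 (0.0533) and WT tumor 3 (0.0544). Dusp2, another phosphatase of activated T cells, was at 22.8, 72.3, 62.96 and 72.7 FPKM in spleen and 61.6, 107 and 113 FPKM in WT tumor, and the groups overlapped.

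Regulators of G protein signalling (RGS proteins) switch off signals from chemokine receptors, and their members did not move one way. Rgs2 had 14.8, 28.6, 3.63 and 1.097 FPKM in spleen and 371, 300.1 and 324 FPKM in WT tumor, a difference of 5.33 ± 0.75 (limma adjusted p = 0.00248). Rgs10 was abundant in spleen, at 612, 514, 639 and 456 FPKM, and lower in WT tumor, at 227, 285 and 237 FPKM (-1.14 ± 0.18, limma adjusted p = 0.00441). Every tumor library lay below every spleen library in Rgs10 and above every spleen library in Rgs2. Rgs1, the third of 9 tested members to pass, had 11.9, 4.28, 8.603 and 4.88 FPKM in spleen and 30.1, 64.6 and 64.7 FPKM in WT tumor and lost its call without WT tumor 3 (0.055) and WT tumor 4 (0.0534). Among 17 regulators of mRNA decay and quiescence, 1 passed. Zfp36, which encodes the protein tristetraprolin that destroys cytokine mRNAs, had 27.4, 25.5, 28.7 and 32.8 FPKM in spleen, a narrow range, and 153, 252 and 167 FPKM in WT tumor (2.67 ± 0.43, limma adjusted p = 0.00629).

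A few cytosolic chaperone genes were higher in the tumor libraries, while genes of the endoplasmic reticulum stress response gave no call. Hsp90aa1, the inducible form of the chaperone HSP90, was the chaperone with the smallest p. Its values were 379.9, 332, 348 and 399 FPKM in spleen and 1399, 1811 and 1196 FPKM in WT tumor (1.99 ± 0.18, limma adjusted p = 0.000244). Dnajb1, the HSP40 partner of HSP70, had 15.6, 56.2, 36.1 and 74.9 FPKM in spleen and 238, 259.5 and 180.5 FPKM in WT tumor, with the call lost without WT tumor 2 (0.0561) and WT tumor 3 (0.0639). Hspa8, the constitutive HSP70, differed less, at 582, 661, 469.5 and 548 and 924, 992 and 895 FPKM (0.74 ± 0.15), and lost its call without WT tumor 2 (0.0552) and WT tumor 3 (0.071). These were the 3 of 21 tested cytosolic chaperones that passed (median 1.16). Of 15 tested members of the unfolded protein and integrated stress response 0 passed the limma test (median 0.21), where 2.29% of all genes tested passed. At an unadjusted limma p under 0.05, which 15.8% of all genes tested reached, there were 4, all higher. Atf4, a regulator of the response, had 44.5, 17.9, 19.2 and 19.96 FPKM in spleen and 133, 73.9 and 53.04 FPKM in WT tumor without overlap. Its limma adjusted p was 0.0588.

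Promoter sequences are printed for 4 genes whose values stood higher in WT tumor, since they hold elements that textbooks tie to early-response transcription: the cAMP response element bound by CREB, and the CArG box bound by serum response factor. Sequences are from RefSeq on GRCm38.p6, from 250 bases before to 50 after the start, 5′ to 3′ on the gene's strand, and capitals mark the motif. Areg lies at chr5:91139349-91139648 on the plus strand and Dusp1 at chr17:26508423-26508722 on the minus strand. Ldha lies at chr7:46845554-46845853 on the plus strand, and Zfp36 at chr7:28379179-28379478 on the minus strand.
Areg: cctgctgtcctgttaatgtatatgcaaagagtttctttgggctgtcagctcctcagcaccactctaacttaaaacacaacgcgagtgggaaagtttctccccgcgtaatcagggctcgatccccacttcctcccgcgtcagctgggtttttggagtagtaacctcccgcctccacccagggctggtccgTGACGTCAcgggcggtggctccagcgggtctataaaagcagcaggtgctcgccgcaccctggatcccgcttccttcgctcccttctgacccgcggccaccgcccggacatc
Dusp1: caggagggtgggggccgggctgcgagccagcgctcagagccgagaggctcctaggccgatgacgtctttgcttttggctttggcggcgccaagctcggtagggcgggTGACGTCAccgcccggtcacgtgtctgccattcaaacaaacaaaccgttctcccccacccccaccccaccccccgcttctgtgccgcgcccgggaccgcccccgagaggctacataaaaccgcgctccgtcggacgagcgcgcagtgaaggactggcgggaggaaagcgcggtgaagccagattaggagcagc
Ldha: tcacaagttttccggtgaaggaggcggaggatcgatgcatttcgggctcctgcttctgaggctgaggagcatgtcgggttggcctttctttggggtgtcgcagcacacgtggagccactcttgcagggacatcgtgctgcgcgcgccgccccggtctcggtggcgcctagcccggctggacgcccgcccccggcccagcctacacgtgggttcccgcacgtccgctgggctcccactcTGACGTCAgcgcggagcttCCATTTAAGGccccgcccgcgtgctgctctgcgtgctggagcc
Zfp36: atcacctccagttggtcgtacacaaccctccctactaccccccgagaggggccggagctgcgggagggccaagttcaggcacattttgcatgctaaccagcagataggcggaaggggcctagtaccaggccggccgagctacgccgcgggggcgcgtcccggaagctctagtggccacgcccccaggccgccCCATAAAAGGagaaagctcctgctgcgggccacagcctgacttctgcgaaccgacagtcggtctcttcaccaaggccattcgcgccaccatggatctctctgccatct
In Areg and Dusp1 the capitals mark the full cAMP response element TGACGTCA, which begins 61 and 143 bases before the start. In Ldha they mark the same element 12 bases before the start and a CArG box from base 8 after it. In Zfp36 they mark a CArG box that begins 58 bases before the start. Over the tested genes, 6117 had a RefSeq promoter, of which 238 (3.89%) held TGACGTCA on either strand. Of the genes that passed, 4 of 77 higher ones (5.19%) and 0 of 47 lower ones held it. The AP-1 site TGANTCA was in 361 of the 6117 genes (5.9%), in 12 of 77 higher genes (15.6%) and in 2 of 47 lower genes (4.26%). Among the 12 were Anxa2, Tnfrsf9, Aldoa, Lmna and S100a11, while Ctla2a and Ctla2b, and Ifit3 and Ifit3b, are near copies of each other and count as separate genes. The Ctla2a call was lost without WT tumor 2 (0.0784), WT tumor 3 (0.0653) and WT tumor 4 (0.0619), and the Ctla2b call without WT tumor 2 (0.0688) and WT tumor 4 (0.0584). CArG boxes (CC, then 6 of A or T, then GG) were in 1.52% of all promoters, in 4 of 77 higher genes (Actg1, Dusp5, Ldha and Zfp36) and in 1 of 47 lower genes. Other motifs were scanned too. The heat shock element GAANNTTC was in 7.08% of all promoters, 6.49% of higher genes and 12.8% of lower genes. In the same order, the shorter TGACG was in 38.5%, 40.3% and 29.8%, and the hypoxia response element ACGTG in 30.9%, 39.0% and 29.8%. Promoters of Dusp16 and of the lower gene C1qb, which hold a heat shock element, are not printed. A gene with several RefSeq starts counted as holding a motif if any of its windows held it. Of the 6117 genes, 1258 had more than 1 start. Of the AP-1 site holders named here, Aldoa had 3 starts, Tnfrsf9, Lmna and Ctla2a had 2 each, and the others 1. More windows give more room for a motif, and the shares are not corrected for this. These are descriptions of letters and say nothing of binding.

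**Figure D2:**
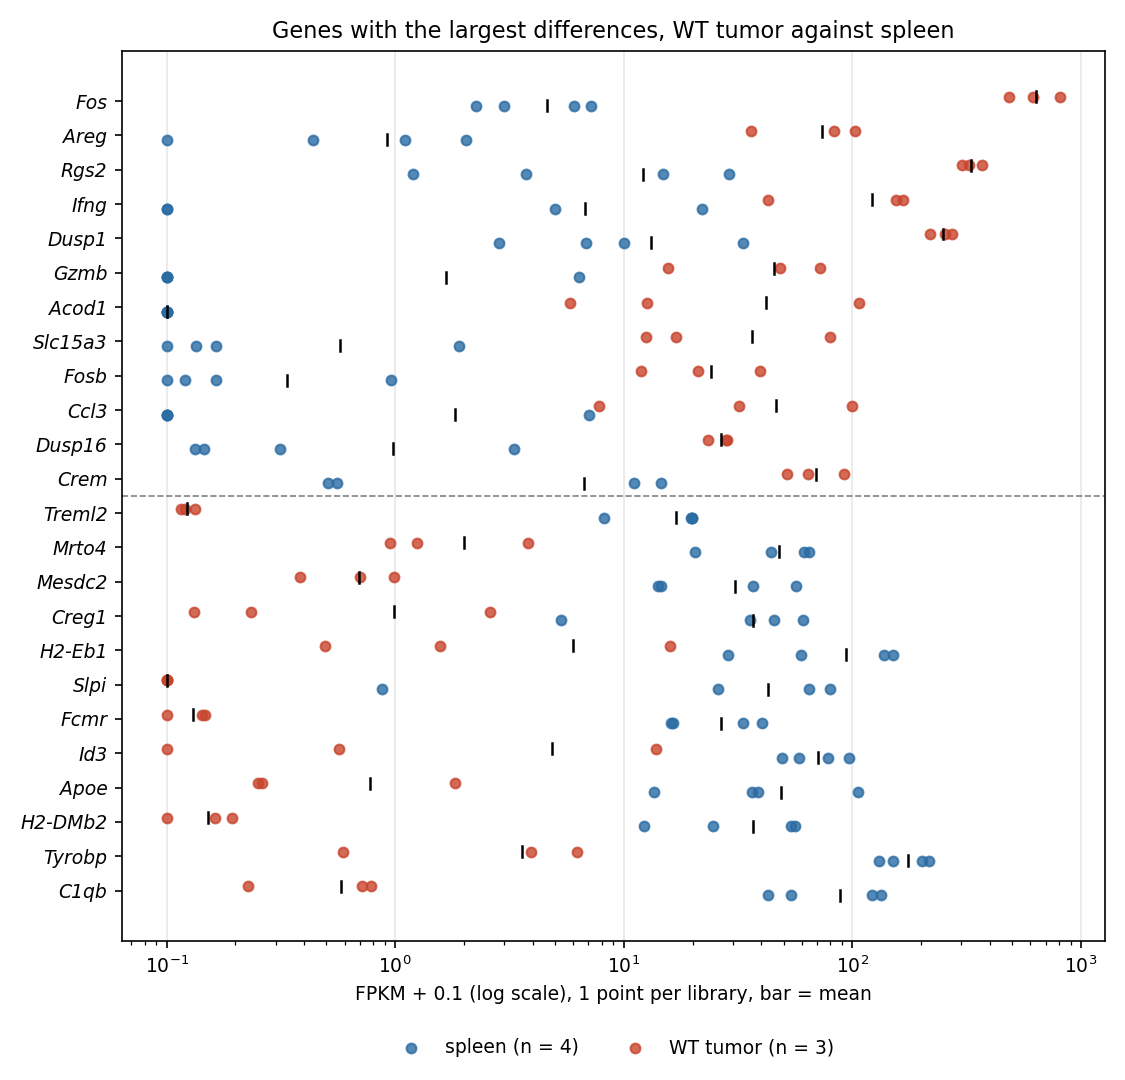
Levels in each spleen (blue, n = 4) and WT tumor (red, n = 3) library are shown for the named genes with the largest differences each way, as FPKM + 0.1 on a logarithmic axis, with bars at the group means. Genes above the dashed line were higher in WT tumor and those below were lower, with no overlap between the groups in any of them, and 9 of the 24 lost their call without at least 1 library (Ifng, Gzmb, Slc15a3, Ccl3, Crem, Creg1, H2-Eb1, Slpi and Fcmr).

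Signalling genes of the T cell receptor gave 1 call, which in a list of 28 is near the 2.29% of all genes tested. Of 28 tested genes of the T cell receptor complex and its proximal signalling, 0 passed as higher and 1 as lower (median -0.25). That gene, Dgka, encodes a kinase that consumes diacylglycerol and so restrains the signal. It stood at 139, 151, 144 and 151 FPKM in spleen and 78.1, 74.4 and 61.9 FPKM in WT tumor (-1.03 ± 0.21, limma adjusted p = 0.0207), a call lost without WT tumor 4 (0.061). At an unadjusted limma p under 0.05, which 15.8% of all genes tested reached, 2 of the 28 were higher and 8 lower, Dgka included. Of 23 NF-kB subunits, inhibitors and targets 2 passed as higher, Nfkbiz and Tnfaip3 (median 0.63). Nfkbiz, a nuclear IkB protein, had 23.3, 19.4, 18.3 and 32.5 FPKM in spleen and 132, 121 and 71.8 FPKM in WT tumor, with the call lost without WT tumor 2 (0.0857), WT tumor 3 (0.0806), spleen 2 (0.0528) and spleen 3 (0.0571). Tnfaip3, a deubiquitinase gene that ends the signal, had 0.379, 7.09, 1.59 and 0.0948 and 34.8, 10.7 and 17.3 FPKM, with the call lost without WT tumor 2 (0.133), WT tumor 3 (0.0639), WT tumor 4 (0.0952), spleen 1 (0.103), spleen 3 (0.0833) and spleen 4 (0.0966). The inhibitor gene Nfkbia, at 63.3, 56.3, 115 and 106 and 104, 253 and 202 FPKM, did not pass, with WT tumor 2 inside the spleen range.

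Effector Treg genes were the list with the second highest median, 1.49 over 27 tested members, of which 7 passed as higher and 0 as lower (Areg, Icos, Tnfrsf9, Id2, Gzmb, Rora and Bhlhe40). Rora lost its call without WT tumor 2 (0.086), WT tumor 3 (0.0923), WT tumor 4 (0.0529), spleen 1 (0.0586), spleen 3 (0.0659) and spleen 4 (0.0533), and Bhlhe40 without WT tumor 2 (0.0844), WT tumor 3 (0.0906), WT tumor 4 (0.072), spleen 1 (0.0602) and spleen 2 (0.0507). Areg, the gene of the epidermal growth factor receptor ligand amphiregulin (chromosome 5, 91139599 to 91148432), had 0.998, 0.335, 0 and 1.94 FPKM in spleen and 102, 35.8 and 83.1 FPKM in WT tumor (5.35 ± 0.60, limma adjusted p = 0.000606). Icos, a costimulatory receptor that sustains effector Tregs, was abundant in both tissues. Its values were 387, 268, 223 and 318 FPKM in spleen and 706, 817 and 777 FPKM in WT tumor (1.38 ± 0.19, limma adjusted p = 0.00248). Tnfrsf9, the gene of the costimulatory receptor 4-1BB, was at 91.02, 38.4, 118 and 90.01 FPKM in spleen and within a narrow range in WT tumor, at 305, 312 and 311 FPKM (1.97 ± 0.35, limma adjusted p = 0.0103). Cd28, the main costimulatory receptor of T cells, had 41.1, 43.1, 33.02 and 37.95 FPKM in spleen and 128, 149.8 and 108 FPKM in WT tumor (1.70 ± 0.30, limma adjusted p = 0.0103). Each tumor library was above each spleen library in these genes. Ctla4, the inhibitory receptor that removes CD80 and CD86 from other cells, had 2.59, 11.9, 13.9 and 40.01 FPKM in spleen and 101, 113 and 76.1 FPKM in WT tumor (2.89 ± 0.62, limma adjusted p = 0.0262). Spleen 1 was low and spleen 4 high within their group, and the Ctla4 call was lost without WT tumor 2 (0.0807), WT tumor 3 (0.0906), WT tumor 4 (0.0584), spleen 2 (0.0532) and spleen 3 (0.0525).

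Among 24 tested checkpoint and costimulatory receptors 5 passed as higher and 1 as lower (median 0.26). Besides Icos, Cd28 and Ctla4 the higher ones were Cd48, lost without WT tumor 3 (0.0653), and Lilrb4a, lost without WT tumor 3 (0.0738) and WT tumor 4 (0.0781). The lower one was Btla, an inhibitory receptor of resting lymphocytes, at 11.6, 14.3, 24.6 and 37.8 FPKM in spleen and 1.12, 1.92 and 6.39 FPKM in WT tumor, a call lost without WT tumor 2 (0.0887), WT tumor 3 (0.0821), spleen 3 (0.0659) and spleen 4 (0.0659). Pdcd1, the gene of PD-1, stood at 42.2, 21.9, 23.3 and 23.1 FPKM in spleen and 43.5, 40.1 and 51.5 FPKM in WT tumor. The groups overlapped, and the difference was 0.73 ± 0.49 (limma adjusted p = 0.516). Tigit had 9.36, 5.15, 14.5 and 8.68 FPKM in spleen and 68.9, 73.3 and 85.2 FPKM in WT tumor without overlap, but its difference of 2.95 ± 0.90 had a limma adjusted p of 0.116. Of 20 tested TNF receptor and ligand superfamily genes 3 passed as higher (median 0.85): Tnfrsf9, Tnf and Tnfsf10, the last lost without any one of the 7 libraries (adjusted p = 0.0615 to 0.114). Tnfrsf18, the gene of GITR, was not among them, at 70.97, 148, 112 and 118 and 318, 159 and 403 FPKM (limma adjusted p = 0.0879). Of 23 Treg lineage identity genes 2 passed as higher, Capg and Ctla4, and 1 as lower (median 0.15). The call of Capg, an actin-capping protein gene, was lost without WT tumor 2 (0.0953) and WT tumor 3 (0.057). The lower one was Gpr83, a G protein-coupled receptor gene that marks Tregs of lymphoid organs, with 26.2, 46.5, 35.4 and 20.7 FPKM in spleen and 2.39, 7.24 and 0.05804 FPKM in WT tumor (-3.36 ± 0.61, limma adjusted p = 0.0115). Ikzf2, the gene of the lineage factor Helios, had 151, 123, 103 and 164 and 136, 198 and 139 FPKM with overlapping groups.

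Cytokine genes gave 3 calls of 16 tested, all higher (Areg, Ifng and Tnf, median 0.85). Ifng, the gene of interferon gamma, which is a product of helper and cytotoxic T cells more than of Tregs, had 21.8, 0, 4.92 and 0 FPKM in spleen and 166, 42.5 and 156 FPKM in WT tumor (4.94 ± 1.11, limma adjusted p = 0.0323). Spleen 2 and 4 were listed at 0 and spleen 1 was the highest of its group. The Ifng call was lost without any of WT tumor 2 (0.104), WT tumor 3 (0.0517), WT tumor 4 (0.107), spleen 2 (0.075), spleen 3 (0.0526) and spleen 4 (0.0748). Markers of conventional helper T cells, Ifng included, summed to 94.0 to 141.5 FPKM in spleen and 306.5 to 358 FPKM in WT tumor. Their part in the result was not tested. Tnf had 3.05, 0.149, 6.46 and 3.77 FPKM in spleen and 15.1, 37.6 and 29.9 FPKM in WT tumor, and its call was lost without WT tumor 2 (0.0509), WT tumor 3 (0.124), WT tumor 4 (0.102), spleen 1 (0.0589) and spleen 2 (0.055). Il10, a suppressive cytokine gene, varied within spleen from 0.0553 to 40.4 FPKM and had 42.2, 12.8 and 23.4 FPKM in WT tumor, with no call.

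Receptors for these signals were led by Ifngr1, which encodes the ligand-binding chain of the interferon gamma receptor. It had 236, 130.5, 87.3 and 146 FPKM in spleen and 714, 907 and 943 FPKM in WT tumor (2.58 ± 0.29, limma adjusted p = 0.000606). All tumor libraries stood well above the highest spleen library. Only 2 of 24 tested cytokine receptor genes passed (median 0.37), the other being Crlf2, a chain of the receptor for thymic stromal lymphopoietin, whose call was lost without WT tumor 2 (0.086), WT tumor 3 (0.13), spleen 1 (0.0677), spleen 2 (0.0677) and spleen 4 (0.0716). Among 14 chemokine receptors 1 passed as higher. Cxcr4, the receptor for CXCL12, had 0.336, 1.62, 2.13 and 0.193 FPKM in spleen and 14.4, 28.2 and 14.4 FPKM in WT tumor (3.33 ± 0.65, limma adjusted p = 0.0165), a call lost without WT tumor 3 (0.0606). Ccr8, a receptor known on tumor Tregs, had 0.323, 0.138, 0.493 and 2.08 FPKM in spleen and 3.81, 5.51 and 14.2 FPKM in WT tumor without overlap, at a limma adjusted p of 0.161. Of 6 tested chemokine genes 1 passed, Ccl3, which was listed at 0 in 3 spleen libraries and had 7.66, 99.4 and 31.8 FPKM in WT tumor. Its call was lost without WT tumor 3 (0.0889), WT tumor 4 (0.0686), spleen 1 (0.0613), spleen 2 (0.0609) and spleen 3 (0.0659).

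Genes of the S100, annexin, galectin and vimentin list, which mark activated and migrating T cells, had the most calls of any list, 8 of 18 tested, all higher (median 0.99). Vim, the gene of the intermediate filament vimentin, had 80.9, 152, 124 and 104 FPKM in spleen and 699, 491 and 489.8 FPKM in WT tumor (2.29 ± 0.25, limma adjusted p = 0.000597). Anxa2, a calcium-dependent membrane-binding annexin, was at 10.9, 12.6, 13.3 and 15.9 FPKM in spleen and 98.4, 96.9 and 184 FPKM in WT tumor (3.11 ± 0.47, limma adjusted p = 0.00436). S100a4, a calcium-binding protein gene of motile cells, had 306, 404, 209 and 206 FPKM in spleen and 672, 1085 and 851 FPKM in WT tumor (1.66 ± 0.26, limma adjusted p = 0.00463). The groups stood apart in all 3 genes. The others were Lgals1, S100a6, S100a10, S100a11 and Lmna. Lgals1, the gene of galectin-1, lost its call without WT tumor 2 (0.0533), and S100a6 without WT tumor 2 (0.0784), WT tumor 4 (0.0792), spleen 2 (0.0528) and spleen 3 (0.0526). The S100a10 call was lost without WT tumor 2 (0.0592), WT tumor 4 (0.101), spleen 2 (0.0506) and spleen 3 (0.0649), the S100a11 call without WT tumor 3 (0.0939), WT tumor 4 (0.125), spleen 1 (0.0738), spleen 2 (0.0608) and spleen 4 (0.0711), and that of Lmna, the lamin A gene, without WT tumor 2 (0.137), WT tumor 3 (0.0773), WT tumor 4 (0.0795), spleen 2 (0.0891), spleen 3 (0.0615) and spleen 4 (0.0853). Of 34 tested actin and actin-binding genes 2 passed as higher, Actg1 and Capg (median 0.26). Actg1, the gene of gamma actin, had 1076, 960.4, 641 and 905 FPKM in spleen and 1933, 1554 and 1639 FPKM in WT tumor (0.95 ± 0.16, limma adjusted p = 0.00941). Actb, its beta partner, differed by 0.13 ± 0.10 (limma adjusted p = 0.611). Both actin genes have many near-identical pseudogenes, between which reads could be split.

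Granule genes gave 3 calls of 11 tested, all higher (median 1.11). Gzmb, the gene of the protease granzyme B, was listed at 0 in 3 spleen libraries and at 6.25 FPKM in spleen 1, and had 15.6, 48.2 and 72.4 FPKM in WT tumor. Its call was lost without WT tumor 3 (0.0738), WT tumor 4 (0.0771) and spleen 3 (0.0526). Nkg7, a granule membrane protein gene, had 445, 276, 144 and 183 FPKM in spleen and 896, 571 and 971 FPKM in WT tumor, with the call lost without WT tumor 2 (0.086), WT tumor 4 (0.0914), spleen 3 (0.0615) and spleen 4 (0.0606). Markers of CD8 T or NK cells, Gzma included, summed to 8.55 to 114 FPKM in spleen and 64.1 to 198.5 FPKM in WT tumor, where the NK cell gene Ncr1 was listed at 0 throughout. Their part in the granule genes was not tested.

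**Figure D3:**
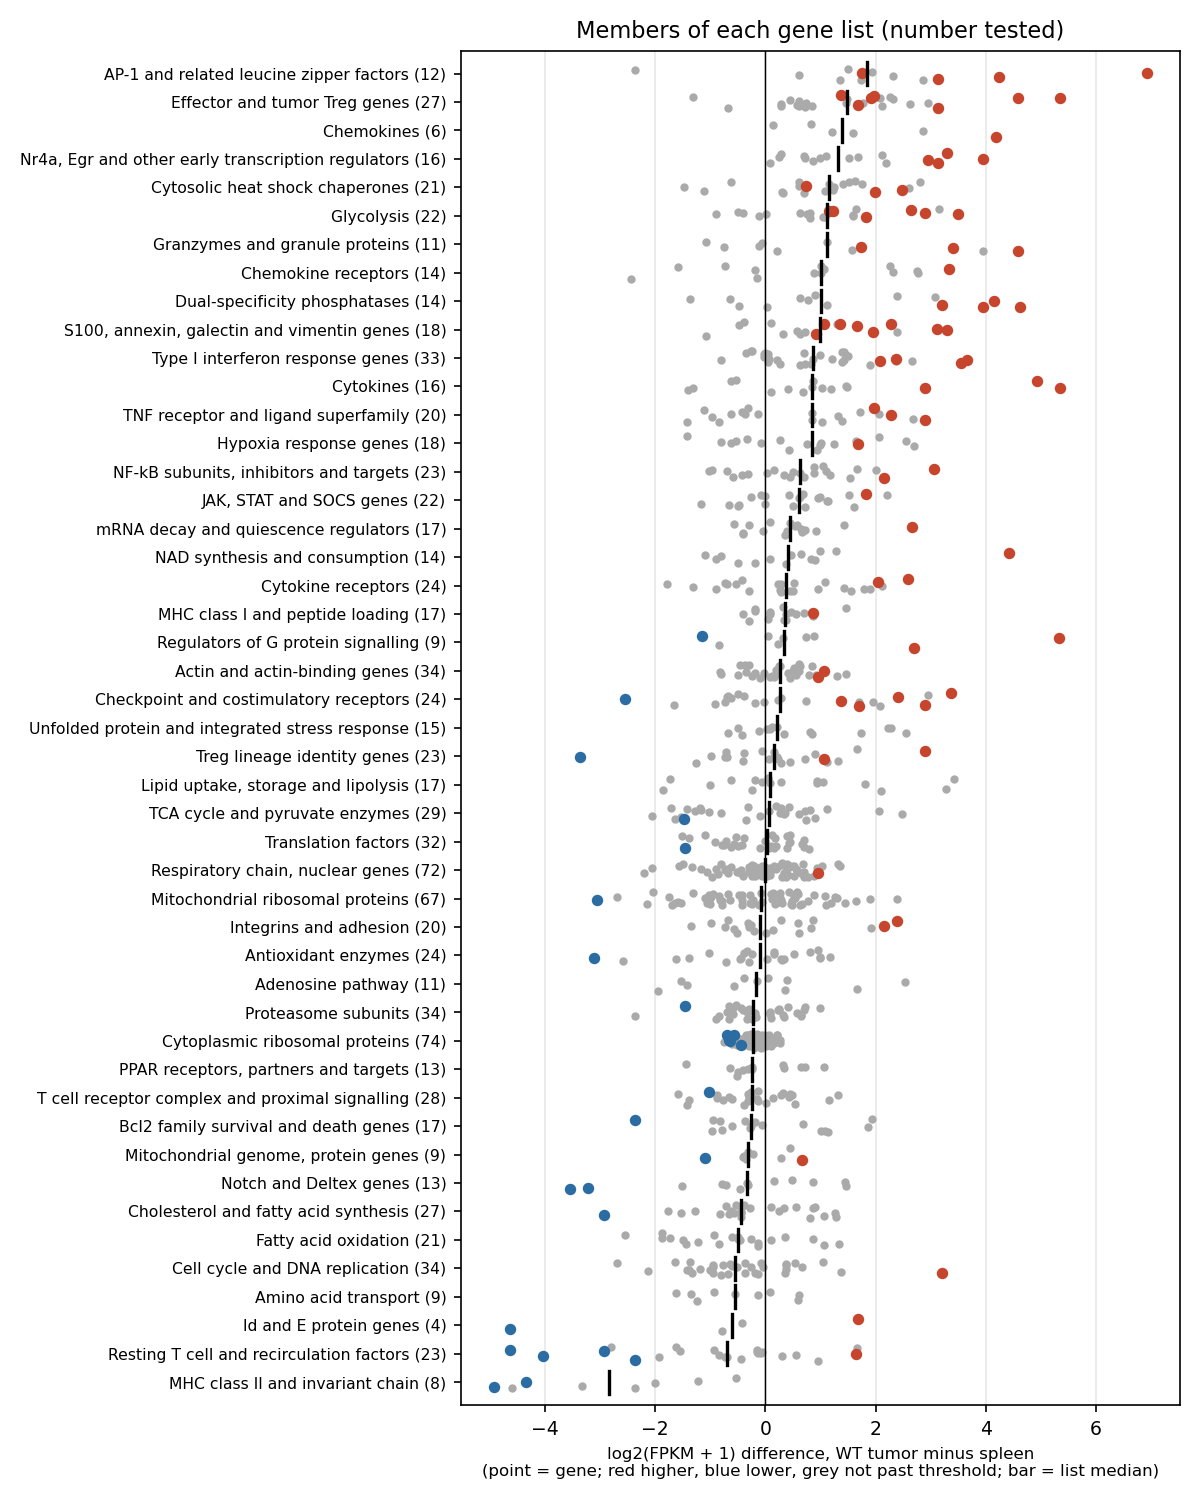
Each row is a gene list with its number of tested members, each point a member's log2(FPKM + 1) difference, WT tumor minus spleen, and each bar the list median. Red points passed as higher and blue as lower, and medians run from 1.84 for AP-1 and related factors down to -2.84 for MHC class II genes.

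Glycolysis was the metabolic pathway with most calls, 6 of 22 tested, all higher (median 1.12). Every WT tumor value was above every spleen value in 12 of the 22, and in 6.2% of all genes tested. Ldha, which turns pyruvate into lactate (chromosome 7, 46841475 to 46855627), had 390.3, 405, 247 and 392 FPKM in spleen and 698, 1034 and 788 FPKM in WT tumor (1.23 ± 0.21, limma adjusted p = 0.00909). Pkm, the pyruvate kinase gene, was at 248, 211, 274 and 341 FPKM in spleen and 674, 538 and 569 FPKM in WT tumor (1.16 ± 0.20, limma adjusted p = 0.00909). Aldoa, an aldolase gene, had 125, 74.7, 125 and 96 FPKM in spleen and 419.6, 358 and 332 FPKM in WT tumor (1.83 ± 0.33, limma adjusted p = 0.01195). These enzymes were well expressed in both tissues, and no spleen library reached the range of the tumor libraries. The glucose transporter gene Slc2a1 and the lactate exporter gene Slc16a3 were low in spleen. Slc16a3 had 0 to 1.16 FPKM there and 12.1, 7.44 and 8.25 FPKM in WT tumor, a call lost without WT tumor 2 (0.0501), and Slc2a1 had 2.095 to 4.95 and 18.6, 32.1 and 30.9 FPKM, a call lost without WT tumor 2 (0.0576), WT tumor 3 (0.106), WT tumor 4 (0.1), spleen 2 (0.0705), spleen 3 (0.0615) and spleen 4 (0.0606). Tpi1 passed as well and lost its call without WT tumor 4 (0.0522). Hif1a, the oxygen-sensing transcription factor gene, was the 1 call among 18 hypoxia response genes (median 0.84). It had 37.3, 69.7, 30.3 and 55.1 FPKM in spleen and 152, 138 and 159 FPKM in WT tumor, a call lost without WT tumor 2 (0.0788), WT tumor 3 (0.0702), WT tumor 4 (0.0819), spleen 1 (0.0613) and spleen 3 (0.0656).

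Calls among lipid genes, which the title of the series concerns, are set beside the shares over all genes tested. These shares were 2.29% past the limma threshold and 15.8% at an unadjusted limma p under 0.05. In lists of this size, counts of 0 or 1 past the threshold lie near the first share. Of 17 tested lipid uptake, storage and lipolysis genes 0 passed the limma test (median 0.09), and at an unadjusted p under 0.05 there were 4 higher and 1 lower. Of 21 fatty acid oxidation genes 0 passed (median -0.50), with 3 lower at an unadjusted p under 0.05. Of 13 PPAR receptors, partners and targets 0 passed (median -0.25), with 1 lower at an unadjusted p under 0.05. Ppard, the gene of PPAR beta, stood at or under 0.180 FPKM in all 7 libraries and was not tested. The lipolysis gene Lipe, hormone-sensitive lipase, had 17.5, 23.7, 14.5 and 23.9 FPKM in spleen and 94.3, 84.7 and 43.5 FPKM in WT tumor without overlap (1.80 ± 0.46, limma adjusted p = 0.0625). Dgat1, which makes triglycerides, had 54.2, 25.5, 42.5 and 56.5 and 155, 319.5 and 131 FPKM without overlap (limma adjusted p = 0.109). Cpt1a, which admits fatty acids to mitochondria, had 17.04, 34.1, 59.1 and 13.2 FPKM in spleen and 6.54, 17.8 and 6.03 FPKM in WT tumor with overlapping groups. Of 27 cholesterol and fatty acid synthesis genes 1 passed as lower, Mvd (median -0.44), and its call was lost without WT tumor 2 (0.085), WT tumor 4 (0.118), spleen 1 (0.0529), spleen 2 (0.0608), spleen 3 (0.0618) and spleen 4 (0.0855). Of 29 TCA cycle and pyruvate enzymes 1 passed as lower, Idh3g, lost without WT tumor 2 (0.0635), WT tumor 3 (0.0806) and spleen 2 (0.0533) (median 0.07). Amino acid transport (9 tested) and the adenosine pathway (11 tested) gave 0 limma calls, and 1 and 3 genes at an unadjusted p under 0.05. Of 24 antioxidant enzymes 1 passed as lower, Gsto1, lost without WT tumor 2 (0.086) and WT tumor 3 (0.0514).

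Some genes of resting T cells were lower in WT tumor, and 1 was higher. Of 23 tested resting and recirculation factors 4 passed as lower and 1 as higher (median -0.70). Every tumor value was below every spleen value in 9 of them, and in 5.98% of all genes tested. Id3, whose protein blocks E proteins from binding DNA, had 96.9, 49.2, 78.1 and 58.4 FPKM in spleen and 0, 0.466 and 13.8 FPKM in WT tumor (-4.64 ± 0.74, limma adjusted p = 0.00525). WT tumor 4 held nearly all of what was left in the tumor. Its relative Id2, which prevails in effector cells, went the other way, with 233, 162, 98.8 and 103 FPKM in spleen and 548, 415 and 398 FPKM in WT tumor (1.67 ± 0.30, limma adjusted p = 0.0103). Bcl2, the gene of a protein that guards against apoptosis, was at 27.8, 40.3, 51.6 and 74.6 FPKM in spleen and 6.28, 13.6 and 6.08 FPKM in WT tumor (-2.36 ± 0.43, limma adjusted p = 0.0118). It was the 1 call among 17 tested Bcl2 family members. Treml2, a cell-surface receptor gene of lymphoid and myeloid cells, was at 19.7, 19.7, 19.6 and 8.07 FPKM in spleen and at or below 0.0330 FPKM in every WT tumor library (-4.04 ± 0.51, limma adjusted p = 0.00151). Igfbp4 fell as well, with a call lost without WT tumor 2 (0.0645) and WT tumor 3 (0.0703).

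The higher one was Klf2, which drives recirculation through the receptor S1PR1 and is usually shut off in activated T cells. It had 312, 305, 256 and 580.4 FPKM in spleen and 1213, 971 and 1056 FPKM in WT tumor (1.64 ± 0.26, limma adjusted p = 0.00455). S1pr1, its target, did not follow, at 25.97, 72.1, 59.4 and 51.3 FPKM in spleen and 139.6, 40.6 and 66.98 FPKM in WT tumor with overlapping groups (limma adjusted p = 0.612). Tcf7, a factor of resting and memory T cells, had 86.3, 68.9, 86.6 and 73.1 and 71.9, 94.4 and 50.8 FPKM with overlapping groups.

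Among 13 Notch and Deltex genes 2 passed as lower and 0 as higher (median -0.33). Dtx1, a ubiquitin ligase gene induced by Notch, was at nearly the same level in all spleen libraries, 58.01, 55.5, 57.5 and 57.7 FPKM, and had 4.25, 2.25 and 6.22 FPKM in WT tumor (-3.55 ± 0.46, limma adjusted p = 0.00151). Hes1, a Notch target that represses transcription, had 11.5, 6.37, 9.13 and 8.72 FPKM in spleen and 0, 0.101 and 0.0473 FPKM in WT tumor (-3.22 ± 0.53, limma adjusted p = 0.00742). Of 34 cell cycle and DNA replication genes, 2 were higher and 6 lower at an unadjusted limma p under 0.05, which 15.8% of all genes tested reached. After adjustment 1 passed as higher (median -0.55), and it was an inhibitor of the cycle. Cdkn1a, the gene of p21, had 0, 0.804, 0.1304 and 0.117 FPKM in spleen and 4.74, 16.3 and 13.8 FPKM in WT tumor (3.21 ± 0.54, limma adjusted p = 0.00749).

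Interferon response genes gave 4 calls of 33 tested, all higher (Ifit3b, Zbp1, Ifit3 and Isg20, median 0.86). Zbp1, a sensor of nucleic acids, had 9.31, 10.3, 16.4 and 19.04 FPKM in spleen and 70.9, 47.6 and 111 FPKM in WT tumor, a call lost without WT tumor 2 (0.0582) and WT tumor 4 (0.0856). Ifit3 had 15.2, 0.839, 5.03 and 31.2 FPKM in spleen and 73.6, 179.6 and 77.6 FPKM in WT tumor, and Ifit3b is so close in sequence that reads could be split between them. The Ifit3 call was lost without any of WT tumor 2 (0.0665), WT tumor 3 (0.125), WT tumor 4 (0.0718) and spleen 3 (0.079), and the Ifit3b call without WT tumor 2 (0.0592), WT tumor 3 (0.0625) and spleen 3 (0.0525). That of Isg20, an exonuclease gene, was lost without WT tumor 2 (0.0784), WT tumor 3 (0.097), WT tumor 4 (0.155), spleen 1 (0.0926), spleen 2 (0.059) and spleen 3 (0.0674). B2m, the light chain of MHC class I, was the 1 call among 17 MHC class I genes, with 1080.0, 1004, 1237 and 829 FPKM in spleen and 1677, 1725 and 2296 FPKM in WT tumor (0.87 ± 0.17, limma adjusted p = 0.0175), lost without WT tumor 4 (0.0699).

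A few ribosomal protein genes were lower by a small amount. Of 74 tested cytoplasmic members 5 passed as lower and 0 as higher (median -0.23). Every tumor value was below every spleen value in 19 of them, and in 5.98% of all genes tested. Rpl8 had 5399, 4598, 4858 and 4999 FPKM in spleen and 3488, 2827 and 3117 FPKM in WT tumor (-0.66 ± 0.10, limma adjusted p = 0.00455). Rpl10 kept its call without each library as well, while Rplp1 lost it without WT tumor 2 (0.0611) and WT tumor 3 (0.0773) and Rps2 without WT tumor 2 (0.0844), WT tumor 3 (0.052), WT tumor 4 (0.0863), spleen 3 (0.0745) and spleen 4 (0.0696). These genes have many pseudogenes among which reads could be split. FPKM are scaled to the mapped fragments of a library, but they do not add up to a fixed total. The totals were 521884 to 562843 FPKM in spleen and 589560 to 595391 FPKM in WT tumor. Whether gains in other genes had a part in these lower values was not tested. Of 32 translation factors 1 passed as lower, Eif3g, and of 67 mitochondrial ribosomal protein genes 1, Mrps15, at 134, 149.7, 131 and 126 FPKM in spleen and 42.4, 3.18 and 22.9 FPKM in WT tumor (-3.06 ± 0.59, limma adjusted p = 0.0159). The Eif3g call was lost without WT tumor 2 (0.104), WT tumor 3 (0.0745), spleen 1 (0.0548), spleen 2 (0.0769) and spleen 4 (0.0606). Of 34 proteasome subunits 1 passed, Psma4, lower and lost without WT tumor 2 (0.126), WT tumor 4 (0.126), spleen 2 (0.102), spleen 3 (0.0756) and spleen 4 (0.104), and of 72 nuclear respiratory chain genes 1, Cox8a, higher and lost without WT tumor 2 (0.0539), WT tumor 3 (0.0773) and spleen 3 (0.0514). In these lists with 1 call, the share called was near the 2.29% of all genes tested.

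Transcripts of the mitochondrial genome moved in both directions. mt-Co1, a subunit of cytochrome c oxidase, had 889, 816, 841 and 798 FPKM in spleen and 1462, 1268 and 1280.0 FPKM in WT tumor (0.67 ± 0.12, limma adjusted p = 0.0116). mt-Nd6, a complex I subunit encoded on the opposite strand to the other protein genes, had 2153, 1759, 1513 and 1552 FPKM in spleen and 986, 725 and 726 FPKM in WT tumor (-1.10 ± 0.15, limma adjusted p = 0.00248). These were the 2 calls among 9 tested members. The ribosomal RNA mt-Rnr1 rose from 3819, 4461, 4005 and 4377 FPKM in spleen to 6699, 7995 and 8159 FPKM in WT tumor (0.87 ± 0.09, limma adjusted p = 0.000389). The tRNA genes mt-Tf and mt-Tv, which flank mt-Rnr1, had larger differences. mt-Tf had 12.3, 4.78, 14.9 and 6.404 FPKM in spleen and 356, 373 and 321 FPKM in WT tumor (5.17 ± 0.50, limma adjusted p = 0.000244), and mt-Tv had 18.7, 12.96, 28.4 and 34.1 and 257, 438 and 367 FPKM (3.91 ± 0.45, limma adjusted p = 0.000685). Genes this short hold few fragment positions, and FPKM scaled by their length are less certain.

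Markers of other cells were part of the lower genes. Of 11 tested macrophage or monocyte markers 4 passed as lower and 0 as higher (median -3.16). Every tumor value was below every spleen value in 8 of them, and in 5.98% of all genes tested. Tyrobp, a signalling adaptor of myeloid and NK cells, had 216, 201, 150.2 and 131 FPKM in spleen and 6.11, 3.83 and 0.492 FPKM in WT tumor (-5.53 ± 0.71, limma adjusted p = 0.00151). Apoe, a lipid carrier made by macrophages, had 36.5, 106, 38.4 and 13.4 and 1.72, 0.162 and 0.151 FPKM (-4.66 ± 0.75, limma adjusted p = 0.00533). C1qb, a complement chain, had 134, 121, 42.4 and 53.9 and 0.685, 0.616 and 0.128 FPKM (-5.77 ± 0.97, limma adjusted p = 0.008201), and C1qa lost its call without WT tumor 2 (0.0532) and WT tumor 4 (0.0522). The defining macrophage markers Adgre1, Cd68 and Cd5l were listed at 0 in all WT tumor libraries, and Marco in all libraries of both groups. Of 8 tested B cell or plasma cell markers 4 passed as lower. MHC class II genes, the mark of antigen-presenting cells, had the lowest median of the 47 gene lists (-2.84 over 8 tested, all with a difference below 0, 2 past the threshold). H2-DMb2, which belongs to both the class II and the B cell list, had 24.5, 53.9, 56.1 and 12.1 FPKM in spleen and 0.0627, 0 and 0.0933 FPKM in WT tumor (-4.93 ± 0.77, limma adjusted p = 0.00455). H2-Aa, one of the classical class II chains, had 211, 166, 237 and 205 and 20.5, 0.132 and 24.2 FPKM and missed the threshold (limma adjusted p = 0.05499). Dendritic cell markers summed to 9.41 to 34.2 FPKM in spleen and 3.78 to 12.8 FPKM in WT tumor. Melanoma markers summed to at most 1.96 FPKM in any of the 7 libraries, with Mlana, Tyrp1, Dct and Sox10 at 0 in all WT tumor libraries. Fibroblast or endothelial markers reached at most 17.8 FPKM in sum. Neutrophil markers stayed at or under 0.314 FPKM in sum.

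**Figure D4:**
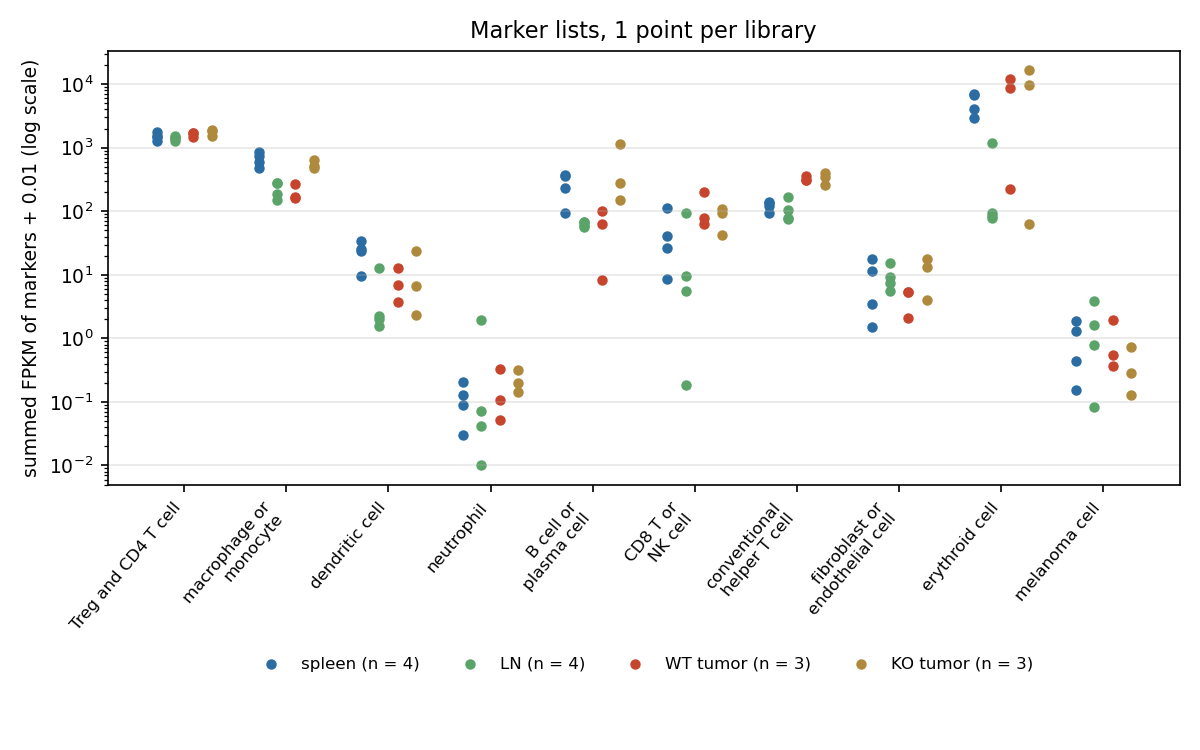
The y axis gives the summed FPKM of each marker list plus 0.01, on a logarithmic scale, with 1 point per library in the 4 groups. Treg and CD4 T cell markers summed to 1294 to 1773 FPKM in spleen, 1262 to 1521 in LN, 1453 to 1699 in WT tumor and 1535 to 1932 in KO tumor. Macrophage or monocyte markers stood at 478.6 to 860.1 FPKM in spleen and 159.6 to 268.7 FPKM in WT tumor, or 278.8 to 740.3 and 1.59 to 107 FPKM without Ctss.

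The gene Acod1 passed as higher in WT tumor. It encodes the enzyme that makes itaconate and is best known from activated macrophages. It was listed at 0 in all spleen and LN libraries and had 5.72, 107 and 12.5 FPKM in WT tumor (limma adjusted p = 0.008702), with WT tumor 3 the high library. In spleen 3 reads would have given 0.0829 to 0.1 FPKM. The KO tumor libraries had 0.795 to 2.56 FPKM of it, with summed macrophage markers of 306.2 to 420.5 FPKM without Ctss.

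Levels in the other groups were set beside these differences as a description. Genes higher in WT tumor than in spleen were mostly near spleen in LN: by mean log2(FPKM + 1), LN was nearer to WT tumor in 12 of the 122 (9.84%), against 41.3% of all genes tested. KO tumor was nearer to WT tumor in 96 of the 122 (78.7%), against 52.9% of all genes tested. For the 72 lower genes the shares were 31.9% (LN, 23 genes) and 56.9% (KO tumor, 41 genes). LN and KO tumor take no part in choosing these genes, except that the LN libraries add to the estimate of the spread, but all comparisons share the spleen and WT tumor libraries. Single genes followed different orders. Fos had 0.328 to 11.9 FPKM in LN and 355 to 554 FPKM in KO tumor, Areg 0 to 0.359 and 53.3 to 73.5, and Icos 397 to 493 and 943 to 1192. Klf2 had 293 to 439 FPKM in LN and 353 to 539 FPKM in KO tumor, both within the spleen range, so that WT tumor was the high group. Id3 and Bcl2 were low in both tumor groups, with 3.12 to 13.8 and 7.32 to 14.5 FPKM in KO tumor, and LN held 85.7 to 205 and 48.4 to 59.6 FPKM. Dtx1 had 10.4 to 27.8 FPKM in LN, between spleen and WT tumor, and 1.55 to 12.8 FPKM in KO tumor. Tyrobp and Hes1 were low in LN, at 0.0876 to 6.57 and 0 to 1.89 FPKM, and high in KO tumor, at 91.8 to 177 and 4.82 to 19.3 FPKM. The macrophage markers other than Tyrobp and Ctss summed to 147.8 to 524.4 FPKM in spleen and 188.1 to 251.1 FPKM in KO tumor, against 3 to 42.3 FPKM in LN and 1.097 to 100.9 FPKM in WT tumor. Their part in the Tyrobp and Hes1 levels was not tested.

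**Figure D5:**
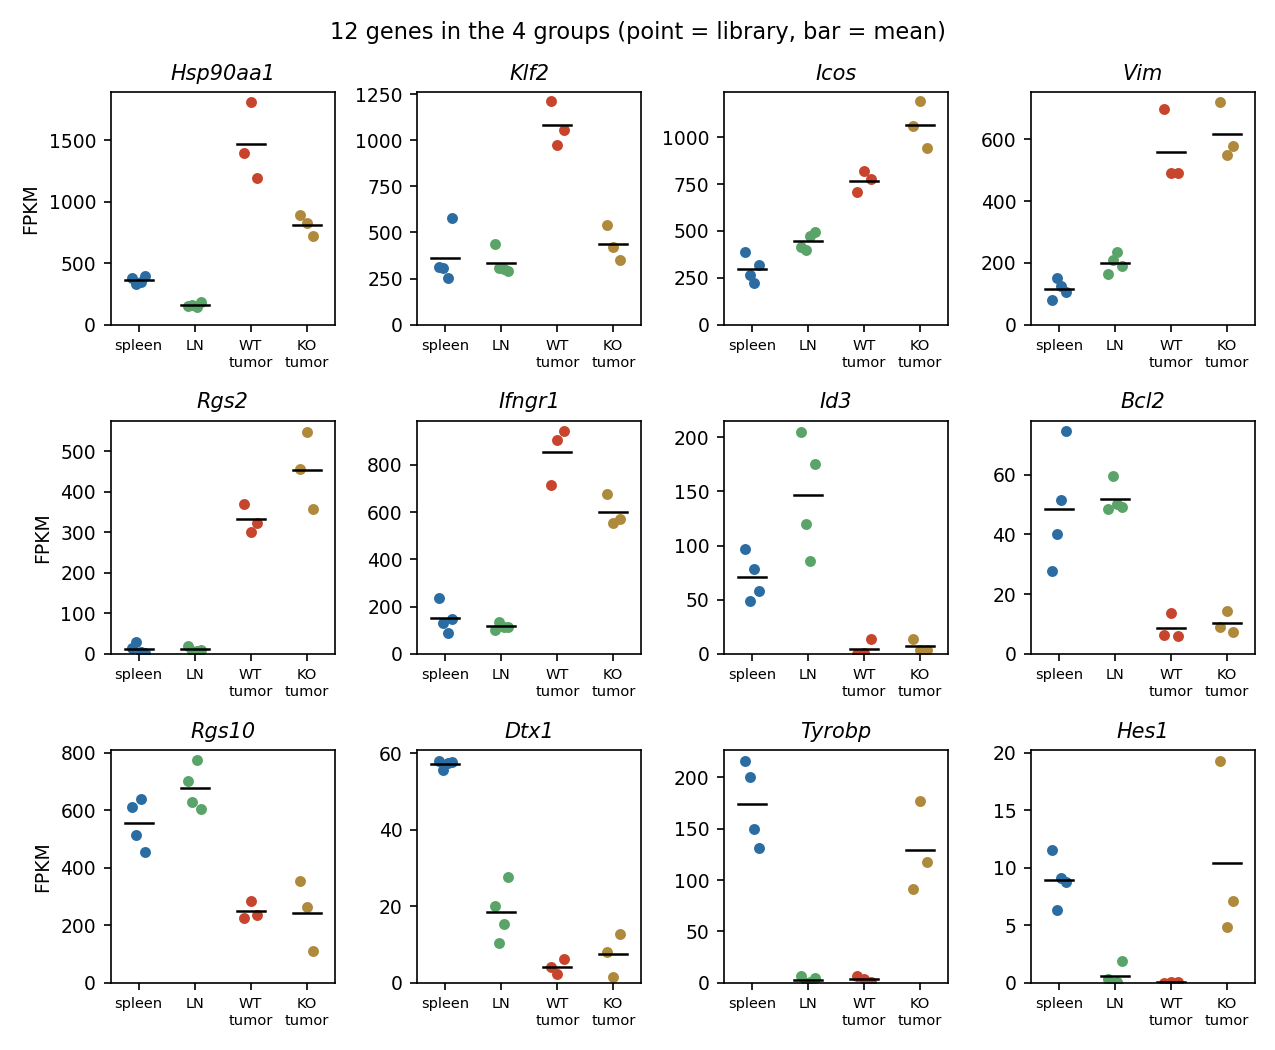
Each panel gives 1 gene's FPKM in every library of spleen (n = 4), LN (n = 4), WT tumor (n = 3) and KO tumor (n = 3), with bars at the means and axes from 0. Vim and Rgs2 were high in both tumor groups, Klf2 and Hsp90aa1 highest in WT tumor, and Tyrobp and Hes1 were high in spleen and KO tumor.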

How the data were processed

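Smart-Seq2 RNA libraries, per the labels' protocols, were deposited as FPKM values that the authors computed, 1 table per library with 22255 Ensembl genes. Tools in the submitters' processing notes are Cufflinks 2.2.1 with Cuffdiff, Bowtie2 2.2.9 under TopHat2 2.1.1, Trimmomatic, and DESeq2, with the builds GRCm38 and mm10, and none was rerun. Of the identifiers, 22201 matched GENCODE M21, which gave names and positions, and 54 did not. In genes with a single transcript, 93.0 to 96.0% of low values were whole reads within 0.1, which gave the depths. Groups came from titles. Robust limma-trend (limma 3.58.1, R 4.3.3) was run on log2(FPKM + 1) over the 11 spleen, LN and WT tumor libraries, which share 1 estimate of the spread, with Benjamini-Hochberg adjustment over the 8478 genes and two-sided p. The scale understates differences of low genes. The test was checked on simulated data. The members and the 47 gene and 10 marker lists were chosen with earlier results of these data known. Named genes were Foxp3, Cd36, up to 12 each way by size of difference (at least 10 FPKM, no overlap), up to 4 per list by p, and the 2 highest markers per list, of which some were left out for room. Other genes were named after their values were seen. Alternatives numbered 18. Figures used matplotlib 3.10.9 and tables Python 3.11.15, pandas 2.3.3 and numpy 2.4.6. Replicate numbers were not treated as pairs in the main test, since the labels do not say whether same-numbered spleen and WT tumor libraries share an animal.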

Additional observations from a re-analysis of the deposited data

Results flagged for a closer look

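In 23 of 137 named genes 1 spleen library stood far from the other 3, by a gap past Dixon's critical value for 4 samples. Chance flags about 1 in 20 groups of 4 where values are normally distributed. FPKM near 0 are not, and many of these genes were near 0 in spleen. That rate is therefore no measure of an excess here. WT tumor, with 3 libraries, was not checked. In FPKM, a single high spleen library was found for Gzmb (6.25), Slc15a3 (1.79), Fosb (0.862), Ccl3 (6.94), Dusp16 (3.21), Dusp14 (2.16), Pde4d (3.42), Cdkn1a (0.804), Ccl4 (3.21) and Itga1 (0.0146), each with the other libraries near 0. A high library also stood out for Gzma (47.5), Kdr (6.09), Atf4 (44.5), Idh3g (299.9), Slc25a20 (15.0), Mvd (37.9), Fasn (24.4), Gsto1 (230.3) and Sirt2 (20.3). A low library stood out for Ldha (247.1), Cox8a (462.2), Treml2 (8.07) and Csf3r (0). The call of Slc15a3 was lost without WT tumor 2 (0.087), WT tumor 4 (0.051), spleen 1 (0.0519), spleen 2 (0.0532) and spleen 4 (0.0517), and that of Itga1 without WT tumor 3 (0.0544). For Gzmb and Dusp14 the high library was spleen 1, and for Ldha and Cox8a the low library was spleen 3. All 194 genes that passed the limma test had no overlap between the groups. In those flagged here the outlying spleen value therefore had to lie outside the WT tumor range, which is no check of the outliers.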

How the results depend on the processing

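Genes past the threshold numbered 194 (122 higher, 72 lower). The count was 117 without the filter on level (79 and 38), 87 in a fit of the 7 libraries only (61 and 26), 109 with array weights (66 and 43) and 118 in limma without trend or robust fit (70 higher). Leaving out 1 library gave 129 to 185 genes, 72 to 107 higher and 54 to 81 lower. The smallest counts came without a WT tumor library. Pseudocounts of 0.1 and 5, a filter of 5 FPKM, a fit of all 14 libraries and both other scalings stayed within 1.5 times the count. Same-numbered spleen and WT tumor samples did not deviate together (correlations of -0.006, -0.001 and -0.009), and with a replicate block the count was 103 (66 and 37). Of 132 named genes that were tested, 0 changed sign past the threshold under these settings. Of the 92 past it, 25 stayed past it under all 18 settings and 67 lost the call under at least 1, and 16 of the other 40 passed under at least 1. Depth limits low genes: 3 reads were worth 0.0829 to 0.1 FPKM for Acod1 in spleen. P-values rest on 3 and 4 libraries, with a spread estimated over these and the 4 LN libraries.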

Other observations

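Of the 194 genes past the threshold, 93 were in no list of genes or markers, 53 higher and 40 lower in WT tumor. Those below were chosen after their values were seen, and all kept their call when any 1 library was left out. Ly6a, the gene of the surface protein Sca-1, had 1401, 406, 939 and 582 FPKM in spleen and 3751, 3642 and 2977 FPKM in WT tumor (2.201 ± 0.31, limma adjusted p = 0.00248). Odc1, the first enzyme of polyamine synthesis, had 24.6, 12.5, 27.3 and 19.1 FPKM in spleen and 174, 109.9 and 113 FPKM in WT tumor (2.63 ± 0.41, limma adjusted p = 0.00455). Receptors for leukotrienes, lipid mediators of inflammation, stood among the higher genes with low spleen levels. Ltb4r1, the receptor for leukotriene B4, had 0, 0.0583, 0.05198 and 0 and 5.82, 5.98 and 10.7 FPKM, and Cysltr2, a receptor for cysteinyl leukotrienes, had 1.89, 0.0451, 0.201 and 0.628 and 16.8, 14.5 and 17.6 FPKM. Their KO tumor levels ran opposite ways, at 14.96 to 49.4 FPKM for Ltb4r1 and 0.711 to 4.05 FPKM for Cysltr2. Klrc1, the gene of the inhibitory receptor NKG2A, had 0, 0.164, 0.0731 and 0.0439 FPKM in spleen and 3.66, 3 and 3.602 FPKM in WT tumor. With no spleen value at 1 FPKM, lack of overlap in Ltb4r1 and Klrc1 was set by the filter on level.

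Lower genes outside the lists had varied roles. Mrto4, a factor of ribosome assembly, had 61.4, 20.3, 64.2 and 43.8 FPKM in spleen and 1.15, 3.72 and 0.852 FPKM in WT tumor (-4.06 ± 0.63, limma adjusted p = 0.00455). Mesdc2, a chaperone of the endoplasmic reticulum, had 14.1, 14.5, 36.6 and 56.6 FPKM in spleen and 0.892, 0.282 and 0.602 FPKM in WT tumor (-4.08 ± 0.57, limma adjusted p = 0.00248). Gfer, a sulfhydryl oxidase of the mitochondrial import pathway, had 9.52, 13.7, 49.6 and 33.8 and 0.945, 0.126 and 2.697 FPKM. Fcna, the gene of ficolin A, a protein of spleen macrophages, had 17.6, 15.9, 13.9 and 7.61 FPKM in spleen and was listed at 0 in all WT tumor libraries. T cell receptor joining segments went both ways. Traj31 was listed at 0 in all spleen libraries and had 86.6, 23.5 and 48.7 FPKM in WT tumor, and Trbj2-1 had 135, 32.5, 175 and 12.2 FPKM in spleen and 0, 1.49 and 0 FPKM in WT tumor. The KO tumor libraries had 0 to 18.8 FPKM of Traj31 and 30.98 to 60.5 FPKM of Trbj2-1. Segments of this length hold few fragment positions. By biotype, 100 of the 122 higher genes and 62 of the 72 lower genes were protein-coding, where 7789 of the 8478 tested genes were.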
